A study of Mus musculus with 6 samples.

Results

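The cd27cd28 and others arrays of small intestinal intraepithelial lymphocytes (IEL) from old mice were compared: they are 2 of the 6 arrays of the series, chosen by their titles alone. IEL are T cells that sit between the epithelial cells of the gut lining. Both fractions came from male C57BL/6 mice of 89 weeks per the labels, 1 array a fraction. The labels describe the sort of all 6 samples with the same words, as CD3+CD4+ T cells of over 98% purity, and state no gate for CD27 or CD28. Whether the cd27cd28 fraction held or lacked these receptors is therefore not known from the labels, and others is not defined further. The other 4 arrays hold CD3+CD4+ T cells of old IEL (IEL-cd4-old) and old spleen (SP-cd4-old) at 89 weeks, and of young IEL (IEL-cd4-young) and young spleen (SP-cd4-young) at 5 weeks, also from male mice. The design text gives 4 to 6 mice per group and does not say whether their cells were pooled.

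CD28 and CD27 are costimulatory receptors, which add a second signal to that of the T cell receptor. T cells that have been stimulated many times are known to lose CD28, and cytotoxic CD4+ T cells, which carry granzymes and chemokines, are known from the gut epithelium. Epithelial cells of the small intestine line the villi as enterocytes and goblet cells, while Paneth cells at the base of the crypts secrete lysozyme and alpha-defensins, small antimicrobial peptides. RNA of these cells can enter a preparation of IEL.

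Of 23473 probes, 19196 had a value on both arrays, and 5529 of these had a signal over 100 on the brighter one. Signals are normalised intensities with a median of 25 per array. A probe or gene was called higher or lower in cd27cd28 when it differed from others by more than 2-fold with the brighter signal over 100. Of the 5529 probes 29 were higher (0.525%) and 153 lower (2.77%). Averaged per gene, 4671 genes were compared, of which 21 were higher (0.45%) and 126 lower (2.7%), around a median log2 difference of 0.11. The lower genes reached further: the lowest log2 difference was -7.27 and the highest 1.39. With 1 array per fraction there is no test, SD or replicate check. Control spots repeated on each array put the spot error of a log2 difference at 0.143, which leaves out differences between mice, sorts and arrays. Just inside the limits lay Jun at 1.01 and Ms4a4b at -1.002, and just outside Apol9b at 0.99 and Tedc2 at -0.99.

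**Figure D1:**
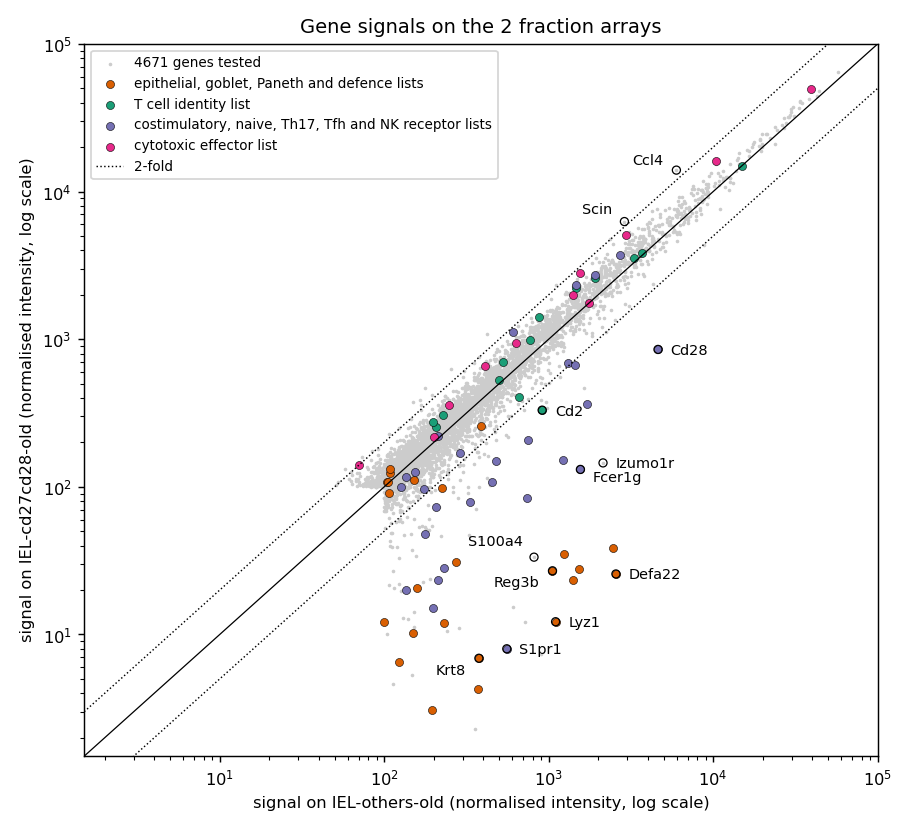
Signal of 4671 genes on the others array (x axis) and the cd27cd28 array (y axis), both normalised intensity on log scales, 1 array each, with coloured gene lists and lines at equality and at 2-fold. Genes below the lower line reach a log2 difference of -7.27, while those above the upper line end at 1.39.

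The sort markers were present on both arrays. Cd3e, a chain of the T cell receptor complex, had a signal of 306 in cd27cd28 and 229 in others, and Cd4 had 894 and 666. Of the T cell identity list, 14 genes were bright enough to compare, 0 were called higher and 1 lower, and the list's median log2 difference was 0.34 beside 0.11 over all genes. The gene called lower was Cd2, an adhesion receptor of T cells, with 331 against 913. Cd8a, the chain that also forms the CD8 alpha homodimer of gut T cells, has 2 probes, which read 18267 and 170 in cd27cd28 and 15482 and 143 in others. Cd8b1, the chain of conventional CD8 T cells, had 611 and 555. Cd28 had 853 in cd27cd28 against 4621 in others, 5.42-fold lower, beside 4257 in IEL-cd4-old, 4759 in IEL-cd4-young, 6887 in SP-cd4-old and 7186 in SP-cd4-young. Only the cd27cd28 array of the 6 lay apart for Cd28. Cd27 was dim on both arrays, at 38.1 and 65.6, so no call was made. These 2 genes carry the fraction's name, so their levels describe the fraction rather than add a result. The array titled cd27cd28 was the one low in Cd28 RNA, while the gate itself stays unstated.

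The largest differences belonged to Paneth cell genes, all of them lower in cd27cd28. Of 12 genes of the Paneth list with a named probe, 7 had a value on both arrays and 6 were bright enough to compare. These 6 were called lower, with log2 differences between -6.64 and -5.77 and a median of -6.21. They are Lyz1, the lysozyme of Paneth cells, and the alpha-defensins Defa17, Defa21, Defa22, Defa23 and Defa24. Defa22 had 25.7 in cd27cd28 and 2564 in others, a 99.8-fold difference, beside 11 in IEL-cd4-old, 15.8 in IEL-cd4-young, 10 in SP-cd4-old and 8 in SP-cd4-young. Lyz1 had 12.2 and 1102, beside 17.8, 30.1, 27.4 and 13.2 on the same 4 arrays. The others array thus stood alone among the 6 for both genes. A further 5 alpha-defensins outside the list were also called lower: Defa36 (2.3 against 354) and Defa39 (7.4 against 904) had the largest differences of all genes, at -7.27 and -6.93, sizes that rest on values close to the lowest listed on the cd27cd28 array, and Defa32, Defa33 and Defa34 differed less, with -1.71, -1.31 and -1.39. Defa33 and Defa34 read over 100 on all 6 arrays, spleen included. Alpha-defensin genes are near-identical copies, so their probes may read each other's RNA and are not separate evidence.

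How alike these genes are can be seen in the bases just before their starts, which are shown because these genes moved together and have the largest differences of the comparison. RefSeq promoter sequences (GRCm38.p6) matched 5 of the 10 alpha-defensin genes on the array. The 250 bases before the start, on the plus strand of chromosome 8, are printed for 3 of them. They lie at chr8:21162027-21162276 (Defa22), chr8:21054790-21055039 (Defa23) and chr8:21427178-21427427 (Defa36). The same 250 bases of Defa21, at chr8:21025295-21025544, are identical to those of Defa22. Capitals mark TATAAA on the given strand and TCAAAG, the reverse complement of CTTTGA, a core that TCF/LEF factors of the Wnt pathway are known to bind; neither word overlaps the other.
Defa22: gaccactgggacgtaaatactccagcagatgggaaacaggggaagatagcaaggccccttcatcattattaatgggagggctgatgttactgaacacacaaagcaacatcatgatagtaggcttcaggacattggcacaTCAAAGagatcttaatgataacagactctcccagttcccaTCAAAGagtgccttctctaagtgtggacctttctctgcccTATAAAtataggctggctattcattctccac
Defa23: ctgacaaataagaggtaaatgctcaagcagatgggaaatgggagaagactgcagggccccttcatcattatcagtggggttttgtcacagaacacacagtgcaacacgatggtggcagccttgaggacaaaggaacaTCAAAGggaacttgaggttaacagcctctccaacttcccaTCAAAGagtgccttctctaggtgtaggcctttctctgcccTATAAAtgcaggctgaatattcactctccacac
Defa36: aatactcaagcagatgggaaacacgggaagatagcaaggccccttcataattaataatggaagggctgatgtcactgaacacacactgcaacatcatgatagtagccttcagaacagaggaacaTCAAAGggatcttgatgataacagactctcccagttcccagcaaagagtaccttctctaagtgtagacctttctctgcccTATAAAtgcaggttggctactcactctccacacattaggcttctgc
In a global alignment, 198 bases of Defa23, 212 of Defa36 and 243 of Defa32 were identical to Defa22. Defa32, at chr8:21528780-21529029, is not printed since it differs so little from Defa22, though its signal differed far less between the fractions. The search covered both strands for CTTTGA. It was found at 2 places in Defa21, Defa22, Defa23 and Defa32 and at 1 in Defa36, and TATAAA at 1 place in each. Of 32851 RefSeq promoter windows of the same length, 13.8% hold CTTTGA once or more, 1.37% hold it 2 times or more, and 7.59% hold TATAAA. A match describes the letters and shows no binding.

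Markers of other epithelial cells were lower in cd27cd28 as well, but not all of them. Of 8 general epithelium genes compared, 4 were called lower, 0 higher, and the median was -2.43. The 4 were Cdh17, a cadherin of the gut epithelium (3.1 against 195), the keratins Krt8 (6.9 against 377) and Krt19 (12 against 232), and the lectin Lgals2 (34.9 against 1248). The other 4, Spint2, Krt18, Cdh1 and Lgals4, lay between -0.58 and 0.19, so the list split into genes far apart and genes close together, and its median describes neither. With dim genes included, 10 of 19 general epithelium genes on both arrays were over 2-fold lower, among them Epcam, the common epithelial surface marker, at 9.1 against 58.7. Of 4 goblet cell genes compared all 4 were called lower: the secretory chaperone Agr2 by 18.9-fold, Zg16, a lectin of mucus, by 8.87-fold, Spink4 by 8.2-fold and the trefoil peptide Tff3 by 7.77-fold. Muc2, the main mucin of goblet cells, was dim on both arrays at 91.4 and 72.7. The enterocyte list, for the cells that absorb nutrients, had 3 genes compared, 1 of them called lower, and a median of -0.23. That gene was Dpp4, a peptidase that T cells also carry, with 98.9 against 225, and SP-cd4-old read 290. With dim genes included, the median over 20 enterocyte genes on both arrays was -0.11. Among the dim genes, Prap1 read 4.4 against 43.2, and Fabp2 read 39.7 against 93.5, beside 75.3 in IEL-cd4-old. Sis and Mttp had a value in others and none in cd27cd28, at 65.4 and 11.9. The lectin Reg3b, which epithelial cells make under microbial stimulation, had 27 in cd27cd28 and 1055 in others, and its relative Reg3g had 10.3 and 149. Reg3b differed from the Paneth genes in that IEL-cd4-young also read it, at 448, beside 15.2 in IEL-cd4-old.

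Of genes with a value on 1 array only, the brightest were again epithelial. Only 4 probes of this kind were over 100. The 3 brightest genes in others were Itln1, the intelectin of Paneth and goblet cells, at 246, the tetraspanin Tspan8 at 151 and Lypd8, which enterocytes secrete, at 149. Against the lowest value listed on the cd27cd28 array, these bounds are at least 117-fold, at least 71.8-fold and at least 70.9-fold lower in cd27cd28. In the other direction the brightest were Tmem63c at 49.4, at least 27.4-fold higher, the angiotensin receptor Agtr1a and the clone 4930503H13Rik at 17.9 each, at least 9.9-fold. Tmem63c read between 21.2 and 56.7 on the 4 further arrays.

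Summed over the 121 genes of the 8 epithelial lists, the signal was 3043 in cd27cd28 and 17434 in others, that is 0.0431% and 0.271% of all signal on the array. On the 4 further arrays the sum ranged from 2142 to 3217. This sum in cd27cd28 thus lay within the range of the 4 CD4+ arrays, spleen included, and that in others lay above all of them. As a share of all signal, cd27cd28 lay below these 4 arrays, which held 0.0439% to 0.0583%, and others again above them. The Paneth list made up much of this: it summed to 148 in cd27cd28, 9779 in others and between 43 and 103 on the further arrays. For the Paneth and goblet lists cd27cd28 also lay above all 4 further arrays, with goblet at 207 beside 100.5 to 146. For general epithelium it did not, at 967 beside 1120 in SP-cd4-old. In such bulk samples, fewer cells of a type and less RNA per cell cannot be told apart.

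**Figure D2:**
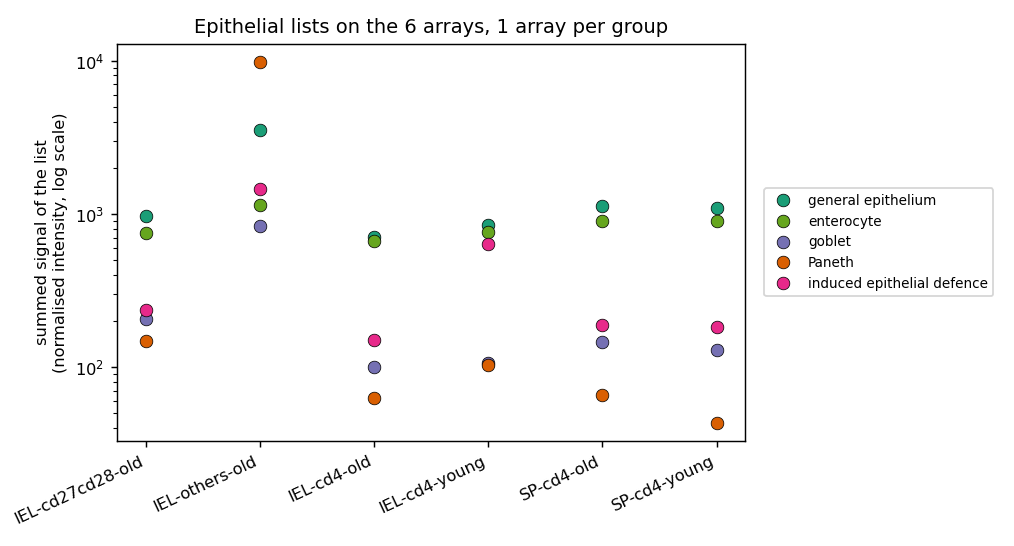
Summed signal (normalised intensity, log scale) of 5 epithelial lists on each of the 6 arrays, 1 point per list and array. The others array has the highest point of every list, with the Paneth list at 9779 against 148 in cd27cd28.

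Of 5 genes of antigen-presenting cells compared, 4 were called lower, with a median of -1.93. They were Lyz2, the lysozyme of macrophages (12.2 against 713), Cd74, the invariant chain of MHC class II (21.7 against 107), and the class II chains H2-Aa (99.3 against 380) and H2-Eb1 (53.2 against 162), the last of which turned positive under normexp background correction. The probe of Lyz2 may read its close copy Lyz1, and without it the median was -1.77. Gut epithelial cells also express class II, and SP-cd4-old read Cd74 at 101. The list summed to 377 in cd27cd28 and 1621 in others. Too dim for a call, Itgax read 14.5 against 73.3 and H2-Ab1 3.2 against 13.3, and IEL-cd4-old read Itgax at 82.5. The macrophage markers Cd68, at 89.4 and 103, and Csf1r, dim at 72.8 and 61.8, did not follow. Adgre1 had a value of 2.6 in cd27cd28 only, and Itgam, Fcgr1 and Mpeg1 had none on either array. Genes of B cells, plasma cells, mast cells, erythroid cells and stroma gave no call, with at most 1 gene bright enough to compare in any of these lists. The part of other cells in the T cell differences was not tested.

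To keep T cell genes apart from epithelial transcripts, the 126 lower genes were set against the other 4 arrays, a split made after their values were seen. On a spleen array, which holds no gut epithelium by its label, 83 of them read over 100, a smaller share than the 4127 of all 4671 genes compared. A further 20 did so only on an IEL-cd4 array, and 23 on none of the 4. Of the 17 lower genes on an epithelial list, 15 were among these 23, beside Dpp4 on the spleen and Reg3b on the IEL-cd4-young array. Among all 4671 genes 6.81% read over 100 on none of the 4 arrays, against 18.3% of the lower genes. For the 21 genes called higher the share was 38.1%, or 8 genes, 0 of them on an epithelial list. Called genes were chosen for fractions far apart, with only the brighter needing to pass 100. The 6.81% is therefore no standard for either share. The lower genes thus held transcripts that sorted CD4+ T cells of the spleen also showed. They also held epithelial transcripts, most of which read over 100 on none of the other 4 arrays. The split is not clean: the alpha-defensins Defa33 and Defa34 fall among the 83. Defa32, Defa36 and Defa39, which are on no list, fall among the 23.

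The T cell gene with the largest difference was S1pr1, the receptor for sphingosine-1-phosphate that lets T cells leave tissues and lymph nodes. It had 8 in cd27cd28 and 556 in others, beside 495 in IEL-cd4-old, 481 in IEL-cd4-young, 1396 in SP-cd4-old and 1880 in SP-cd4-young. Only the cd27cd28 array was dim, and its value is close to the lowest listed there (2.1), so the size of the fold is uncertain. The direction of S1pr1 turned under normexp, to 0.20 on the log2 scale; there the column read as local background was as bright as the spot itself on the others array (729 beside 706). Of 5 genes of the naive and central memory list compared, 3 were called lower, with a median of -2.06. The other 2 called were Nsg2, a membrane protein of naive T cells, with 23.5 against 212, and Satb1, a chromatin organiser of T cells, with 79.3 against 332. Klf3 (96.3 against 175) and Il7r, the receptor for interleukin 7 (168 against 290), had lower values without a call. Ccr7, the receptor that guides naive T cells to lymph nodes, was too dim for a call, at 3.3 against 78.6. St6gal1, a sialyltransferase, had 15.4 and 609, beside 3634 and 4449 in old and young spleen. Atp1b1, a subunit of the sodium pump (10.6 against 239), and Igf1r, the receptor for insulin-like growth factor 1 (4.6 against 114), showed the same order of the fractions, and SP-cd4-old read 1269 and 489.

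Some costimulatory receptors besides Cd28 were lower in cd27cd28. Of 7 genes compared 4 were called lower, 0 higher, and the median was -1.50. Without Cd28, 3 of 6 were called lower, with a median of -1.21. Tnfrsf4, which encodes OX40, had 153 against 1230, beside 770 in IEL-cd4-old. Icos, a receptor of activated T cells, had 151 against 475, which turned to 0.18 on the log2 scale under normexp, and Tnfrsf9, which encodes 4-1BB, had 73 against 207. Tnfrsf18, which encodes GITR, read 692 against 1312 without a call, and Cd226, an activating receptor, went the other way with 1117 against 605 and no call. Of 10 inhibitory receptor genes compared, 1 was called lower: Tox, a nuclear factor of chronically stimulated T cells, with 142 against 350. Ctla4 read 10252 and 12474, a difference of -0.28, and Cd160 read 966 and 706.

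Genes of helper subsets differed unevenly. Of 6 genes of the Th17 list compared, 4 were called lower, with a median of -1.95. They were the chemokine receptor Ccr6 (84.1 against 734), the cytokine Il17f (20.1 against 136) and the paired membrane proteins Tmem176a (108 against 451) and Tmem176b (208 against 748). Batf, a factor needed by Th17 cells and other effectors, read higher without a call, at 2346 against 1473. Iltifb, a copy of the interleukin 22 gene, had 47.5 against 330, and its probe may read Il22 as well. Of 5 genes of the Tfh list, for the T cells that help B cells, 4 were called lower with a median of -1.66. Cxcr5, the receptor that leads them to follicles, had 15.2 against 199, Il21 had 47.9 against 177 (0.058 on the log2 scale under normexp), Sh2d1a, the adaptor SAP, had 664 against 1447, and Icos is also on this list. Of 6 Treg genes compared, 1 was called lower: Izumo1r, which encodes folate receptor 4, had 145 against 2140, beside 1086 in IEL-cd4-old, 1201 in IEL-cd4-young, 8338 in SP-cd4-old and 2988 in SP-cd4-young. Foxp3, the factor that defines Treg cells, was dim, at 17 and 25. The Th1 and Th2 lists gave no call, with medians of -0.03 over 5 genes and -0.09 over only 2 genes. Among their members too dim for a call, Il4 read 5.4 against 53.1, Il18r1 6.5 against 33.7 and Il18rap 27.8 against 80.1. Il5 went the other way, at 16 against 8.

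Of 10 cytokine genes compared, 4 were called lower and 0 higher, with a median of -0.52. Il2, the T cell growth factor, had 22.5 against 171, and Tnfsf11, which encodes RANKL, had 217 against 565, beside Il17f and Il21. Ifng, the interferon of Th1 and cytotoxic cells, had 15491 in cd27cd28 and 10433 in others, and Tnf had 255 and 168; neither was called. Among chemokine receptors 3 of 7 were called lower, Cxcr5, Ccr6 and Ccr2, a receptor of memory and inflammatory cells (91.1 against 323). Ccr9, which directs T cells to the small intestine, read 195 and 253.

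**Figure D3:**
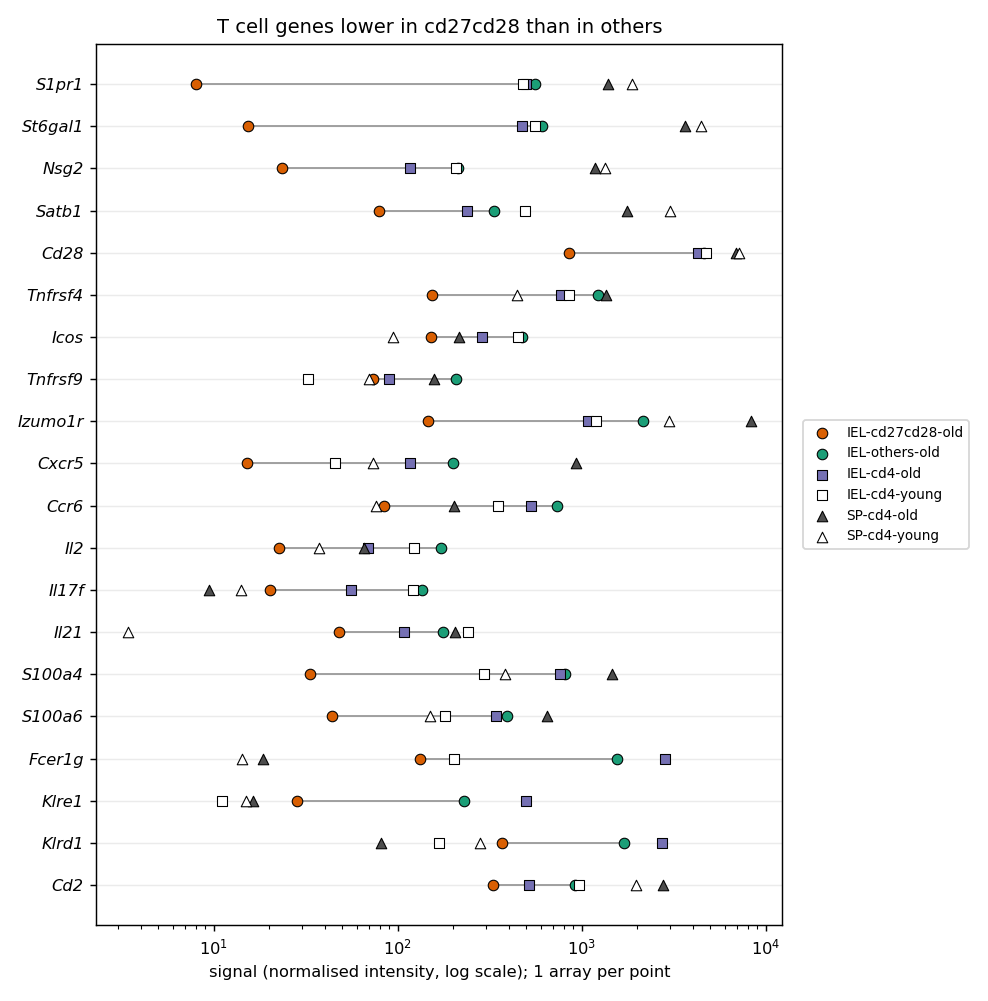
Signal (normalised intensity, log scale) of 20 T cell genes called lower in cd27cd28 on all 6 arrays, 1 array per point, with a line joining the 2 fractions. For S1pr1 and Cd28 only the cd27cd28 point lies apart, at 8 and 853, and for Fcer1g and Klrd1 the IEL-cd4-old point lies above both fractions, at 2825 and 2744.

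Of 6 genes of NK receptors and their adaptors compared, 3 were called lower and 0 higher, with a median of -1.28. Fcer1g, the signalling chain shared by several activating receptors, had 131 in cd27cd28, 1560 in others, 2825 in IEL-cd4-old and 201 in IEL-cd4-young, and read 18.4 and 14.3 in old and young spleen. Klrd1, which encodes CD94, had 366 and 1701, beside 2744 in IEL-cd4-old. Klre1 had 28.4 and 230, beside 497. For these 3 genes the unfractionated old IEL array lay above both fractions. Cd244a, the receptor 2B4, read 2714 and 1917, and Hcst, the adaptor DAP10, read 3710 and 2729, both without a call. Klre1 and Klrd1 changed direction under normexp.

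Calcium-binding S100 proteins of migrating and memory T cells gave 2 calls of 9 genes compared in the S100 and annexin list. S100a4 had 33.4 against 815, 24.4-fold lower, beside 759 in IEL-cd4-old, 295 in IEL-cd4-young, 1460 in SP-cd4-old and 380 in SP-cd4-young. S100a6 had 44.1 against 390. The other 7 were not called and lay between -0.87, for Lgals1 (1673 against 3066), and 0.48, and the list's median was -0.21. Cpe, a peptidase that processes hormone precursors, had 11.1 against 284, beside 260 in IEL-cd4-old. Of 12 T cell receptor signalling genes, the kinases Dgka (167 against 407) and Txk (140 against 302) were called lower, beside 2.7% of all genes. The list's median was 0.05 and 6 of the 12 were above 0, among them Plcg2 (267 against 162, no call). Of 9 NF-kB genes 1 was called lower, Nfkbiz, with 62.3 against 138. That list's median was -0.28 and 3 of the 9 were above 0, among them Nfkbid (7017 against 4750, no call). Of 18 proliferation genes compared, 1 was called lower, the cyclin Ccna2 (126 against 299), but 17 had a difference at or below 0 (94.4%, beside 35.2% of all genes) and the median was -0.62 beside 0.11 for all genes. Examples are the survival factor Birc5 (300 against 588), the sliding clamp Pcna (1207 against 2100) and the topoisomerase Top2a (72 against 141).

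The 21 genes higher in cd27cd28 exceeded others by 2.01-fold to 2.63-fold. Ccl4 and Ccl3, inflammatory chemokines of activated T cells, were the brightest family among them. Ccl4 had 13983 in cd27cd28 and 5979 in others, beside 3516 in IEL-cd4-old, 891 in IEL-cd4-young, 67.5 in SP-cd4-old and 5.4 in SP-cd4-young. Ccl3 had 2316 and 1101, beside 665, 206, 57.3 and 8.5 in the same order. On both genes the cd27cd28 array was the highest and the young spleen array the lowest. In the same chemokine list, Cxcl2, which draws neutrophils, was lower, at 5.3 against 147, and so was Cxcl10, an interferon-induced chemokine, at 99.4 against 263. Ccl5 lay at or near the top of the scanner's range on both arrays, so no fold is given.

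Scin, an actin-severing protein, had 6267 against 2888, and Mras, a relative of Ras, 628 against 254. Prodh, a mitochondrial enzyme of proline breakdown, had 378 against 150, and Vcam1, an adhesion molecule of endothelium, 357 against 168. Both olfactory receptor genes among the highest, Olfr229 (465 against 177) and Olfr44 (390 against 164), were dim in spleen, at 29.2 to 40.7. Susd2, Selenom, Flrt3, Apbb1, Actrt3, Lipa, the lysosomal acid lipase, and Cpd, a carboxypeptidase, exceeded others by 2.03-fold to 2.27-fold. Of the 21 higher genes 19 had both spleen arrays below both fractions (90.5%), beside 49.6% of all genes compared, a missing value counting as below. Lipa was the exception at the other end, with 287 and 345 in old and young spleen. Of the 126 lower genes 31.7% had both spleen arrays below both fractions. The call picks these genes for a dim cd27cd28 value, so spleen arrays fall below both fractions less often by construction. The 21 higher genes were likewise picked by their values on the 2 fractions. The 49.6% of all genes is therefore no standard for either share.

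Cytotoxic effector genes were mostly higher in cd27cd28 by less than 2-fold. Of 11 compared, 1 was called higher, 0 lower, 10 had a difference above 0 (90.9%, beside 64.8% of all genes), and the median was 0.58 beside 0.11 over all genes. The gene called was Prf1, the pore-forming perforin, with 141 against 70. Nkg7, a granule protein, read 5074 against 2963, Srgn, the granule proteoglycan, 2828 against 1560, Fasl, the death ligand, 663 against 411, and Gzma, granzyme A, 16059 against 10377. Gzmb, granzyme B, had 49613 and 39560. Jun, an immediate early transcription factor, was called higher with 763 against 379, and its relative Jund read 1394 against 778. The immediate early list had 10 genes compared, 8 of them above 0 (80%, beside 64.8% of all genes), and a median of 0.37. Jun and Cpd turned negative under normexp.

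**Figure D4:**
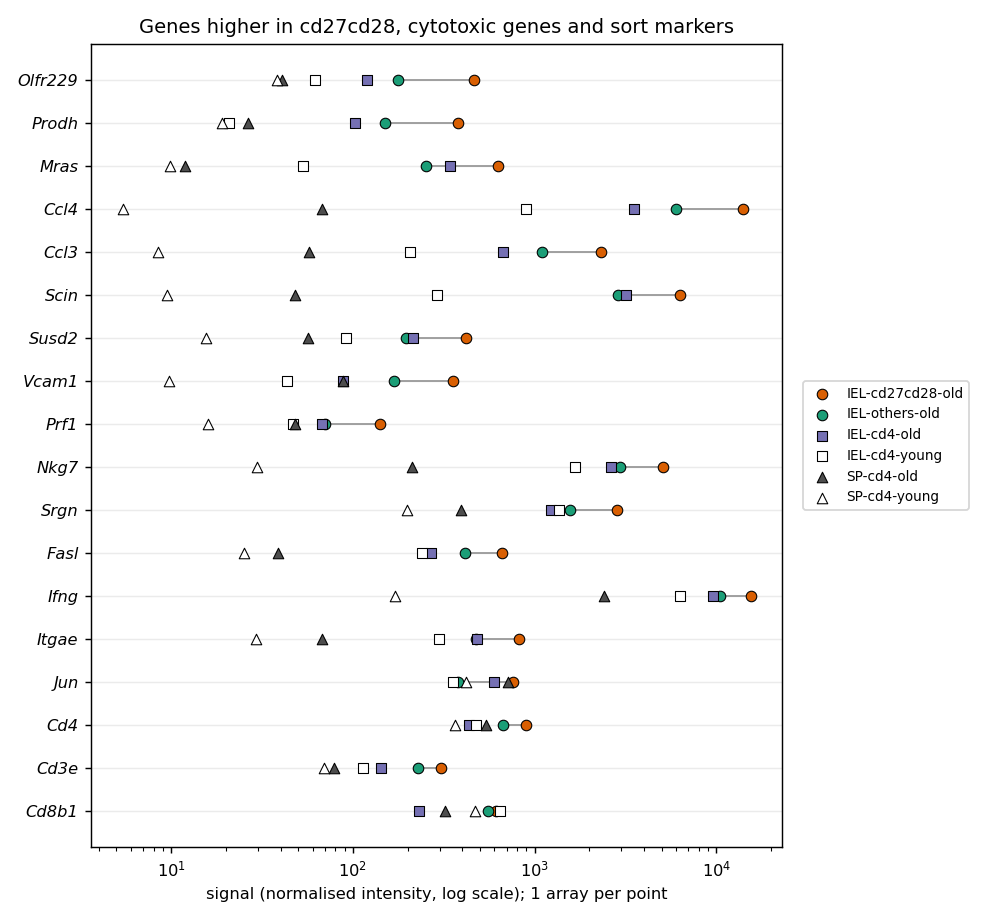
Signal (normalised intensity, log scale) of 18 genes on all 6 arrays: genes called higher in cd27cd28, cytotoxic and related genes, and sort markers, 1 array per point, with a line joining the 2 fractions. Ccl4 runs from 5.4 in young spleen to 13983 in cd27cd28, while Cd4 stays between 362 and 894.

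Genes of residence in the epithelium gave no call among 18 compared, with a median of 0.30. Itgae, which encodes the integrin chain CD103 that binds E-cadherin, has 2 probes, which read 5048 and 134 in cd27cd28 and 2948 and 76.7 in others. Gpr18, Gpr34 and Abi3 also read higher without a call, with differences between 0.62 and 0.69. In the whole list 11 of 18 had a difference above 0 (61.1%, beside 64.8% of all genes). The other 7 included the chemokine Xcl1 at -0.43, Ccr9 at -0.37, Ahr at -0.32 and Cxcr6 at -0.30. Rgs1, a brake on chemokine receptor signalling, had 36115 and 29731. Lists of basic cell functions lay near the median of all genes, with no call: cytosolic ribosome at 0.06, oxidative phosphorylation at -0.04, housekeeping at -0.11, glycolysis at -0.03, GIMAP at 0.12, heat shock at 0.12 and interferon response at 0.16.

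**Figure D5:**
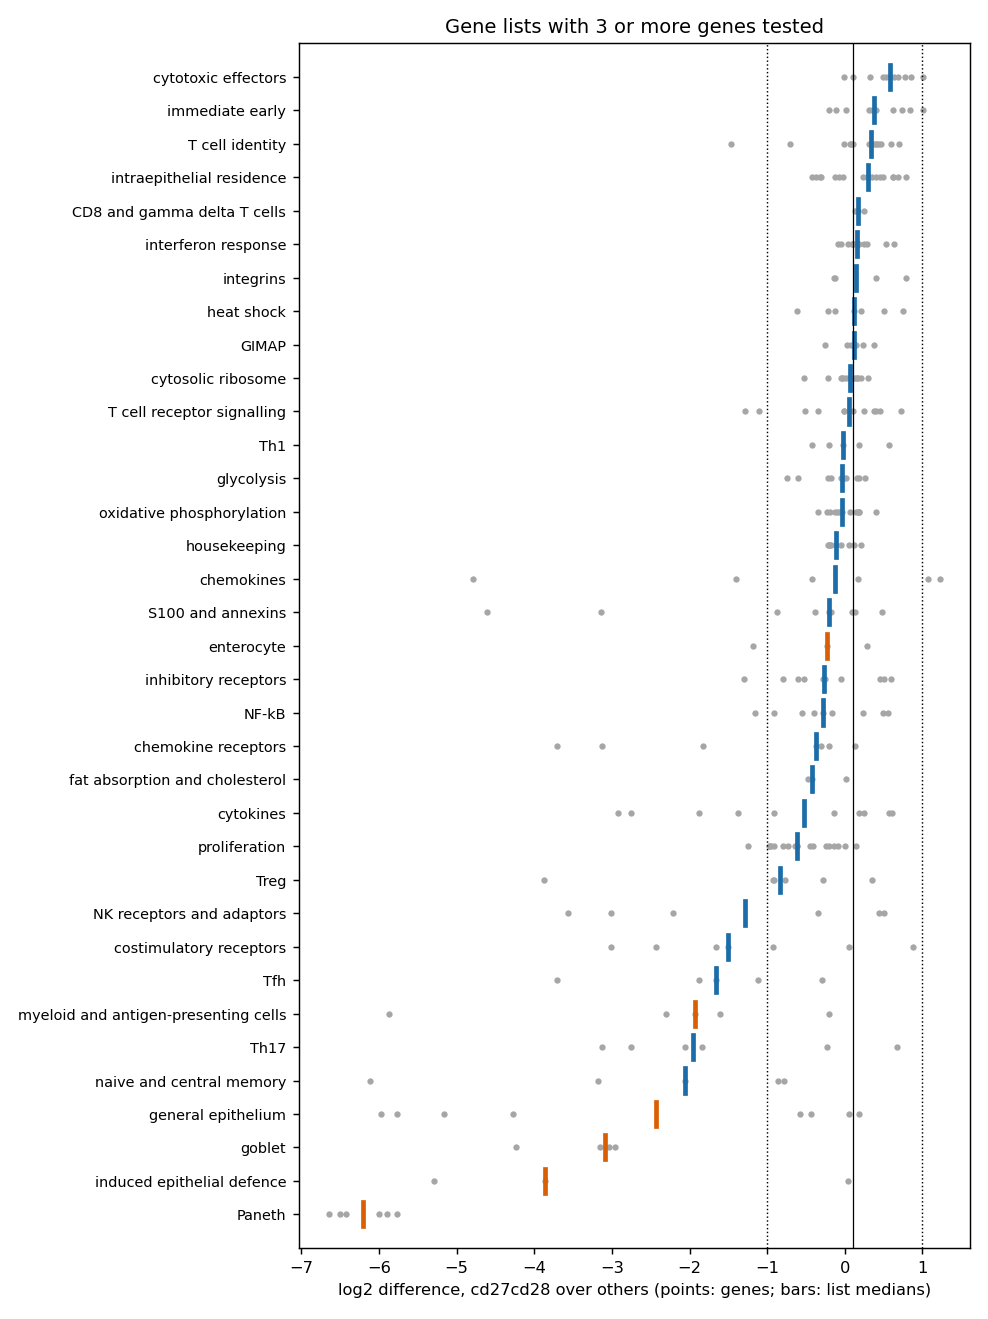
Log2 difference, cd27cd28 over others, of each gene compared (points) and the median (bars) for lists with 3 or more genes compared, with orange bars for epithelial and antigen-presenting lists. Solid line, median of all genes (0.11); dotted lines, 2-fold. Paneth genes lie at -6.21 and cytotoxic effectors at 0.58.

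The unfractionated old IEL array, a separate hybridisation of CD3+CD4+ cells, was set beside the fractions as a description. Over probes with a value on all 6 arrays, it correlated with others at a Pearson r of 0.977 and with cd27cd28 at 0.954. The fractions correlated with each other at 0.956 (5973 probes over 100 on at least 1 array, log2 scale, no test). Probes with an empty cell on any array were left out of these correlations, among them those of Defa21, Defa36 and Krt8. Of 149 lower probes with a value there, its signal lay between the fractions for 106, below both for 24 and above both for 19. These probes were chosen for fractions far apart, so any further array falls between them more often by construction, and the share of 10% among all 5525 probes is no standard for them. As deposited, 67.1% of the lower probes lay nearer to others, beside 68.4% of all probes. That array read lower as a whole, by 0.49 on the log2 scale, so the position was also taken after centring. It then lay between the fractions for 44.3% of the lower probes. It lay nearer to others for 119 of the 149, or 79.9%, beside 62.8% of all probes. Of the 29 higher probes, 89.7% lay nearer to others as deposited and 69% after centring. Called probes were chosen by their values on the 2 fractions, so the share of all probes is no standard here either.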

How the data were processed

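RNA of sorted T cells was labelled with Cy5 and hybridised to Toray 3D-Gene mouse oligonucleotide arrays, 1 array per group. The values compared are the normalised intensity that the authors deposited in the series' value table, linear and scaled so that the listed probes of each array have a median of 25; an empty cell means no value. The methods name global normalisation and the thresholds of 2-fold and a signal over 100. The scanner files deposited by the authors hold spot intensity and a column read as local background, with no subtraction made, and served for alternatives and for spot error (2 positive controls with 24 spots each). The aligner or genome build plays no part, and the array files name none. Between 72.4% and 85.2% of 23473 probes had a value per array, and the number of arrays limits the precision.

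A single symbol was known for 20690 probes (19321 genes), 0 probes had several symbols, and 2783 were left unnamed; for 20556 of the named probes the RefSeq table was searched by Entrez ID, which changed 0 names. Where a gene had several probes, the mean of their log2 values was used. Kbtbd11 shows that probes can disagree, with differences of -4.76 and -0.14. Genes with a value on 1 array only were given as bounds against the lowest value of the dimmer array, which is 2.1 for cd27cd28 and 1.8 for others.

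Members and the 47 gene lists (627 names, 64 without a named probe) were chosen with earlier results of these data known. Lists of receptors, cytokines and T helper genes also hold genes the study discusses. Named were the 15 largest differences in each direction, the 10 largest outside 14 lists of other cell types, up to 4 members per list, the sort markers with Cd8a, Cd8b1, Cd27 and Cd28, and the 3 brightest genes on 1 array only, with predicted genes and clones passed over except the clone named among the last. Other genes were named after their values were seen. Alternatives were values recovered from the scanner files (blank spots subtracted), quantile normalisation, 75th percentile scaling, normexp background correction (offset 50), a constant of 16 added ahead of the log2 step, other signal and fold limits, and the brightest probe per gene. The calling steps were tested on simulated data. Work was done in R 4.3.3 (limma 3.58.1) and Python 3.11.15 with numpy 2.4.6, pandas 2.3.3 and matplotlib 3.10.9.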

Additional observations from a re-analysis of the deposited data

How the results depend on the processing

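Scaling changed little. Values recovered from the scanner files gave 30 higher and 152 lower probes, and 75th percentile scaling 32 and 149. Of the 29 and 153 main calls, 29 and 149 were shared under percentile scaling but only 2 and 25 under normexp. Quantile normalisation gave 21 and 160, and the brightest probe per gene left the list medians within spot error. Under normexp, 1712 probes were bright enough to compare and 147 were higher and 154 lower, so the share of higher calls among all calls was 48.8% in place of 15.9%. The median was then -0.093 for T cell identity, -2.03 for general epithelium and -3.52 for Paneth genes, and 8 named genes changed direction: S1pr1 (0.20), Cpd (-0.31), H2-Eb1 (0.17), Icos (0.18), Klre1 (0.11), Klrd1 (0.35), Il21 (0.058) and Jun (-0.18). A further 138 named genes kept their direction but moved by more than the spot error, and only 19 stayed within it. Of the list medians, 25 moved by more than the spot error and 10 did not. That setting uses the scanner column read as local background, which followed the spot (r on the log2 scale of 0.966 on cd27cd28 and 0.974 on others), with a median of 0.844 and 0.853 of it, so whether it is a background is uncertain; for S1pr1 it read 79.1 beside a spot of 85.7 on cd27cd28, and 729 beside 706 on others. The cause was not tested. Adding 16 before log2 gave 17 higher probes and medians of -1.85 (general epithelium) and -5.24 (Paneth).

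Without a signal minimum 202 probes were higher and 592 lower, 1400 had a value on 1 array only, and the medians were -1.25 (general epithelium) and -5.996 (Paneth). With a minimum of 200, 19 were higher, 95 lower and 1 was on 1 array only, and the medians were -4.72 (general epithelium, 4 genes) and -1.19 (enterocyte, 1 gene). Past 3-fold, 0 were higher and 98 lower. The share of lower probes for which the old unfractionated array lay between the fractions was 71.1% as deposited and 44.3% after centring, which was added after seeing the data, as were the lists without Lyz2 and without Cd28. No paired analysis was possible because each group has 1 array, and for the same reason no replicate could be left out.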
